A study of Mus musculus with 24 samples.

Results

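The lysyl oxidase family of the mouse comprises Lox, Loxl1, Loxl2, Loxl3 and Loxl4. The members were found by matching Ensembl gene identifiers to these symbols, and all 5 were present among the 16604 genes used. All 5 also passed the filter on low values (at least 1 FPKM, fragments per kilobase of transcript scaled to library size, in at least 3 of 24 libraries), which left 11297 genes for testing. Lox, Loxl1, Loxl2 and Loxl3 were at or above 1 FPKM in 24 libraries each, and Loxl4 in 23.

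All libraries were made from EMS404, an SV40-immortalized line of hepatic stellate cells from C57Bl6 mouse liver that also expresses human TLR4. The 8 groups of 3 biological replicates were SB431542+TGFb, SR9011+TGFb, CLK8+TGFb, TGFb, SB431542, SR9011, CLK8 and vehicle (DMSO by library name, untreated by title). SB431542 inhibits the TGFb receptor, SR9011 is an agonist of the nuclear receptor REV-ERB, and CLK8 disturbs the pairing of CLOCK with BMAL1. Compounds were given for 24 h, and in the TGFb groups a further 24 h followed with TGFb at 10 ng/mL together with the compound. The labels state neither the doses of the compounds nor whether cells without TGFb stayed in culture for the later 24 h. TGFb, time in culture and, in the compound groups, time with the compound therefore cannot be told apart. All groups come from a single cell line, and whether replicates were separate cultures is not given beyond the word biological, so p-values measure the spread between these libraries.

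Lysyl oxidases are secreted copper-dependent amine oxidases. They oxidize lysine residues of collagens and elastin to reactive aldehydes, which then join neighbouring chains into covalent crosslinks, and in a fibrotic liver these crosslinks make the scar stiffer and harder to degrade. Lox and Loxl1 are made with a propeptide that BMP1-type proteases can remove, whereas Loxl2, Loxl3 and Loxl4 carry scavenger receptor cysteine-rich domains before the catalytic domain.

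The FPKM of a library summed to 503920 to 610024, with 10780 to 11000 genes at 1 FPKM or more. Sequencing depth in reads is unknown; judged from the smallest value steps of 19 low genes, libraries differed in depth by factors of 0.915 to 1.09. Of 12 stellate and fibroblast markers, 11 were in the table, and the stellate marker Lrat was not. Of these, 8 were at least 1 FPKM in every library, among them Pdgfrb, Hand2 and Col1a1. Des and Reln were under 0.5 FPKM throughout. The summed FPKM of the 11 markers was 1322 to 4132. Of the 4 hepatocyte, 5 endothelial and 3 leukocyte markers in the table, none reached 0.5 FPKM in any library (sums of 0 to 0.25, 0.08 to 0.74 and 0.01 to 0.37 FPKM). Of 4 cholangiocyte markers, none was at 1 FPKM in every library (sums of 2.51 to 11.4). All 5 mesothelial markers were at least 1 FPKM in every library. Their summed FPKM was 470 to 550 with SB431542+TGFb, 109 to 121 with SR9011+TGFb, 101 to 120 with CLK8+TGFb, 216 to 226 with TGFb, 584 to 612 with SB431542, 140 to 214 with SR9011, 203 to 244 with CLK8 and 480 to 500 with vehicle. The stellate sum was lowest with SR9011 (1322 to 1684 FPKM) and SR9011+TGFb (2018 to 2124), against 3739 to 3794 with vehicle. It includes Col1a1 and Col3a1, which are also described below as substrates. Col1a1 averaged 405 FPKM with SR9011 and 1574 with vehicle, and Col3a1 57.8 and 193, so the sum is no measure of cell content alone. The part of these marker shifts in the results below was not tested. In bulk RNA, fewer cells of a type and less RNA per cell cannot be told apart. The 3 SR9011 libraries lay furthest from their group mean (mean squared deviation 0.00925 to 0.0192, against 0.00346 to 0.00891 in the other 21 libraries).

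Changes are given as log2 fold changes of FPKM + 1, and the threshold for a call was a limma p under 0.05 after Benjamini-Hochberg adjustment over all 11297 genes. TGFb against vehicle called 2 of the 5 members, both higher, where 54.9% of all tested genes were called, 20.5% higher and 34.4% lower. SB431542 against vehicle called 2 members, both lower (16.9% of all genes, 11.9% higher and 5.05% lower). SR9011 against vehicle called 5, with 1 higher and 4 lower (69.1% of all genes, 40.7% higher and 28.3% lower). CLK8 against vehicle called 4, all lower (43.9% of all genes, 30.3% higher and 13.6% lower). Under TGFb, SB431542+TGFb against TGFb called 3 members, all lower (59.7% of all genes, 38.3% higher and 21.4% lower). SR9011+TGFb against TGFb called 3, with 1 higher and 2 lower (60.8% of all genes, 36.8% higher and 24% lower). CLK8+TGFb against TGFb called 2, both lower (41.1% of all genes, 27.7% higher and 13.3% lower). The comparisons with vehicle share its 3 libraries, and those with TGFb share the TGFb libraries, so they are not independent. With over 40% of genes called in most of these comparisons, a call alone sets no member apart, and the sizes below matter more. The median log2 change of all tested genes lay between -0.049 and 0.068 in these 7 comparisons.

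**Figure D1:**
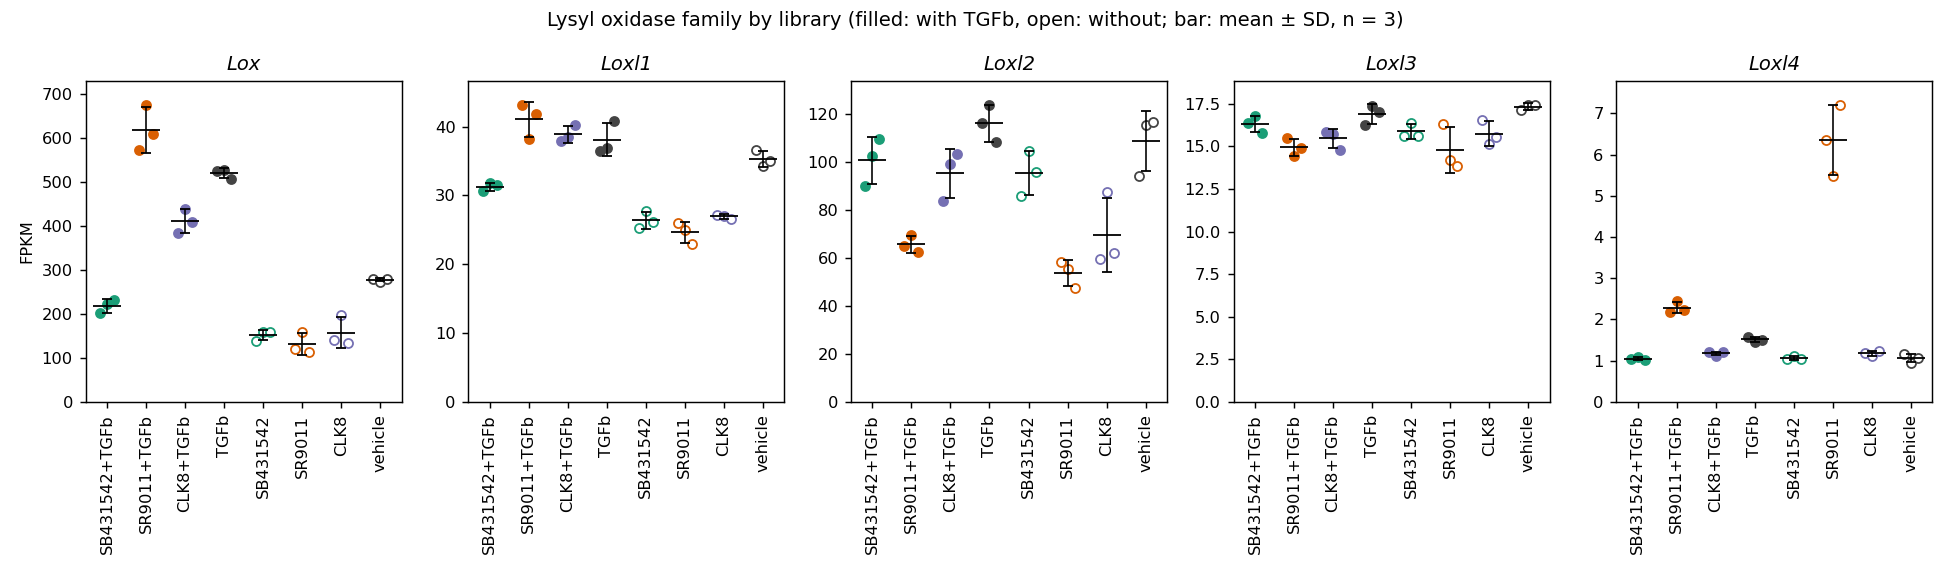
FPKM of each family member (vertical axis, from 0, own scale per panel) in the 24 libraries, by group. Points are libraries, filled with TGFb and open without, and bars give mean ± SD (n = 3). Lox spans 112 to 675 FPKM and is highest with SR9011+TGFb, while Loxl4 stays between 0.95 and 2.45 FPKM except with SR9011 alone, where it is 5.49 to 7.21.

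Lox (ENSMUSG00000024529, protein coding, mm10 chromosome 18, 52516067 to 52529867, minus strand), the founding member of the family, was its most abundant transcript in every group. It stood between place 109 and place 768 of all genes by FPKM. With TGFb it had 525, 527 and 507 FPKM, against 280, 273 and 280 FPKM with vehicle. The groups did not overlap, and Lox rose 1.87-fold by the ratio of means (log2 0.90, SE 0.12, limma adjusted p = 1.52e-06), the 195th largest rise among tested genes. SB431542 had 139, 160 and 158 FPKM and SB431542+TGFb had 201, 221 and 231 FPKM. The receptor inhibitor without TGFb thus lay below vehicle in all 3 libraries (log2 -0.87, SE 0.12, limma adjusted p = 1.90e-05), a fall that only 19 of 11297 genes exceeded. SB431542+TGFb lay below TGFb in all 3 libraries, at 0.419 of its mean (log2 -1.25, limma adjusted p = 9.22e-09). SB431542+TGFb averaged 218 ± 15.6 FPKM and vehicle 278 ± 4.03 FPKM (SD, n = 3 each). The libraries did not overlap, but the difference was not called (log2 -0.35, 95% interval -0.60 to -0.10, limma adjusted p = 0.122). In a fit of these groups alone the adjusted p was 0.00688, and with libraries left out in turn it was 0.173 to 0.300.

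SR9011 and CLK8 each lowered Lox without TGFb. SR9011 had 120, 159 and 112 FPKM (log2 -1.10, limma adjusted p = 4.09e-08) and CLK8 had 140, 197 and 133 FPKM (log2 -0.84, limma adjusted p = 6.69e-06), against the vehicle values above. Every library of both compounds lay below every vehicle library. In the presence of TGFb, SR9011+TGFb had 571, 675 and 609 FPKM, all above the 3 TGFb libraries, though the difference was not called (log2 0.25, 95% interval -0.0003 to 0.49, limma adjusted p = 0.0781). The adjusted p was 0.00235 in a fit of these groups alone, and 0.0591 to 0.251 with libraries left out in turn. CLK8+TGFb had 384, 438 and 409 FPKM, all below TGFb (log2 -0.34, limma adjusted p = 0.0259). This call was lost after rescaling to TPM (adjusted p = 0.080), after quantile normalization (0.165), and without TGFb replicate 1 or 2 or CLK8+TGFb replicate 1 or 3. In order of mean level, Lox ran from SR9011+TGFb through TGFb, CLK8+TGFb, vehicle and SB431542+TGFb to CLK8, SB431542 and SR9011. The ranges of neighbouring groups were separate down to SB431542+TGFb, and those of CLK8, SB431542 and SR9011 overlapped. Lox shares 30 exon bases with an antisense gene, and strand use in counting is not given.

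Loxl1 (ENSMUSG00000032334, protein coding, chromosome 9, 58287738 to 58313186, minus strand), which in mice is needed for the upkeep of elastic fibres, varied less. It ranged from 22.9 to 43.2 FPKM. With TGFb it had 36.5, 37.0 and 40.9 FPKM, against 36.6, 34.3 and 35.0 FPKM with vehicle. The groups overlapped and the change was not called (log2 0.11, 95% interval -0.0024 to 0.22, limma adjusted p = 0.091), although it was after TPM or quantile scaling (adjusted p = 0.0134 and 0.0407). The 3 compounds without TGFb all lowered it. SB431542 had 25.2, 27.7 and 26.2 FPKM (log2 -0.41, limma adjusted p = 6.37e-06). SR9011 had 26.0, 24.9 and 22.9 FPKM (log2 -0.50, limma adjusted p = 1.58e-08). CLK8 had 27.2, 27.1 and 26.6 FPKM (log2 -0.38, limma adjusted p = 4.58e-06). All 9 of these libraries lay below all 3 vehicle libraries. With TGFb added, SR9011+TGFb averaged 41.1 ± 2.55 FPKM and CLK8+TGFb 38.9 ± 1.24 FPKM, and neither was called against TGFb at 38.1 ± 2.41 FPKM (SD, n = 3 each). The 95% intervals of these differences were -0.0028 to 0.22 for SR9011+TGFb and -0.079 to 0.14 for CLK8+TGFb on the log2 scale. The SR9011+TGFb difference was called without TGFb replicate 3 or SR9011+TGFb replicate 2 (adjusted p = 0.0199 and 0.0209). SB431542+TGFb stayed lower, at 31.3 ± 0.594 FPKM (log2 -0.27, limma adjusted p = 0.00011). No other gene overlaps Loxl1 in the annotation.

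Loxl2 (ENSMUSG00000034205, protein coding, chromosome 14, 69609068 to 69695834, plus strand), an enzyme that acts on basement membrane collagen IV as well as fibrillar collagen, was the second most abundant member. TGFb gave 116, 124 and 108 FPKM, against 94.2, 115 and 116 FPKM with vehicle, and the change was not called (log2 0.098, 95% interval -0.16 to 0.35, limma adjusted p = 0.527). SB431542 was not called either, without TGFb (95.3 ± 9.32 FPKM, 95% interval -0.44 to 0.07) or with it (SB431542+TGFb at 101 ± 9.80 FPKM against TGFb, 95% interval -0.46 to 0.05). For SB431542+TGFb, where the main adjusted p was 0.155, a fit of the compared groups alone gave 0.0238. SR9011 lowered Loxl2 to 58.1, 55.3 and 47.6 FPKM, 0.493 of the vehicle mean (log2 -1.004, SE 0.12, limma adjusted p = 3.49e-07). SR9011+TGFb had 64.9, 69.4 and 62.3 FPKM, 0.565 of the TGFb mean (log2 -0.81, limma adjusted p = 8.27e-06). In both comparisons every SR9011 library lay below every library of the other group, and the difference between the changes was not called (0.19, 95% interval -0.17 to 0.55). CLK8 had 59.6, 87.4 and 61.8 FPKM, all below vehicle (log2 -0.65, limma adjusted p = 0.000217). Its replicate 2 stood above the other two for Loxl2 and for Lox, and without it the log2 changes against vehicle were -0.82 and -1.02. CLK8+TGFb had 83.5, 98.8 and 103 FPKM, all below TGFb, but was not called (log2 -0.29, limma adjusted p = 0.0679). It was called in a fit of the compared groups alone (adjusted p = 0.0106). Neighbouring groups overlapped throughout the order of Loxl2 levels, except SR9011+TGFb and SR9011 at its low end. Loxl2 shares 301 exon bases with the antisense gene Gm27177, which is not used here.

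Loxl3 (ENSMUSG00000000693, protein coding, chromosome 6, 83034173 to 83052562, plus strand), which in mice is required for palate and spine development, was the steadiest member, between 13.9 and 17.5 FPKM in all 24 libraries. It had 15.8 to 16.8 FPKM with SB431542+TGFb, 14.5 to 15.5 with SR9011+TGFb, 14.8 to 15.8 with CLK8+TGFb, 16.3 to 17.4 with TGFb, 15.6 to 16.4 with SB431542, 13.9 to 16.3 with SR9011, 15.2 to 16.6 with CLK8 and 17.1 to 17.5 with vehicle. Each group overlapped its neighbour in the order of means. Small falls were called for SR9011 (log2 -0.22, limma adjusted p = 0.000687) and CLK8 (log2 -0.13, limma adjusted p = 0.0442) against vehicle and for SR9011+TGFb against TGFb (log2 -0.17, limma adjusted p = 0.00802). CLK8+TGFb lay below TGFb in all 3 libraries but was not called (log2 -0.12, 95% interval -0.23 to -0.01, limma adjusted p = 0.0674), and after quantile normalization it was (log2 -0.19, adjusted p = 0.00838). The CLK8 call was lost after TPM rescaling and without any of the 3 vehicle libraries or CLK8 replicate 2 or 3 (adjusted p of 0.0505 to 0.153). Loxl3 shares 535 exon bases with Htra2 on the opposite strand, which was at 41.0 to 58.6 FPKM. Htra2 rose with SR9011 (log2 0.35) and with CLK8 (0.22) against vehicle, opposite to Loxl3 (limma adjusted p = 0.000153 and 0.0151).

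Loxl4 (ENSMUSG00000025185, protein coding, chromosome 19, 42593982 to 42612813, minus strand), a further matrix amine oxidase with scavenger receptor domains, was scarce in 7 of the 8 groups and had the widest relative range, 7.59-fold between its lowest and highest library. With SR9011 it had 6.36, 5.49 and 7.21 FPKM, against 1.16, 0.95 and 1.07 FPKM with vehicle. It rose 5.99-fold by the ratio of means, while the log2 change of FPKM + 1 was 1.83 (SE 0.067, limma adjusted p = 1.83e-16), which understates the change of so low a gene. This was the 41st largest rise with SR9011, and with a pseudocount of 0.1 the log2 change was 2.47. SR9011+TGFb had 2.19, 2.45 and 2.22 FPKM, below every SR9011 library and above every TGFb library (log2 0.39 against TGFb, limma adjusted p = 2.93e-05). TGFb alone had 1.58, 1.45 and 1.51 FPKM, all above vehicle (log2 0.29, limma adjusted p = 0.000905). With SB431542+TGFb it was 1.05 ± 0.038 FPKM and with CLK8+TGFb 1.17 ± 0.046 FPKM (SD, n = 3 each), both below TGFb (log2 -0.30 and -0.21, limma adjusted p = 0.000588 and 0.0151). The CLK8+TGFb call was lost without TGFb replicate 1 or CLK8+TGFb replicate 2 (adjusted p = 0.0563 and 0.0538). Without TGFb, neither SB431542 nor CLK8 was called (95% intervals -0.14 to 0.14 and -0.06 to 0.22 on the log2 scale).

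A promoter was searched because SR9011 and CLK8 act on transcription factors with known DNA motifs. That of Loxl4 is shown because it was the only usable promoter sequence of a member, and no other member was searched. Loxl4 also gave the family's largest response to SR9011. The stretch is chr19:42612757-42613056 of GRCm38.p6 from RefSeq, read on the minus strand from 250 bases before the start of the gene to 50 after it. Both strands were searched for AGGTCA, the core site of REV-ERB and ROR, for the E-box CACGTG of CLOCK and BMAL1, for the SMAD box CAGAC and for the GC box GGGCGG. Capitals mark the matches.
Loxl4: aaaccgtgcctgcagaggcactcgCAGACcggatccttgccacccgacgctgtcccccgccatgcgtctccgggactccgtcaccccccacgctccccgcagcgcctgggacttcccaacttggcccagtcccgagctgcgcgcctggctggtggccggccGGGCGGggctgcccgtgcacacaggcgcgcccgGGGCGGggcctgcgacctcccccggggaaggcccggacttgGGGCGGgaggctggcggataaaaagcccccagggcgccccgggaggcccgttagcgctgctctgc
The window held 1 SMAD box, a motif present in 49.6% of 32851 promoters, and 3 GC boxes (present in 35.7%). AGGTCA and CACGTG had 0 matches in these letters, and they occur in 16.3% and 7.15% of promoters.

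**Figure D2:**
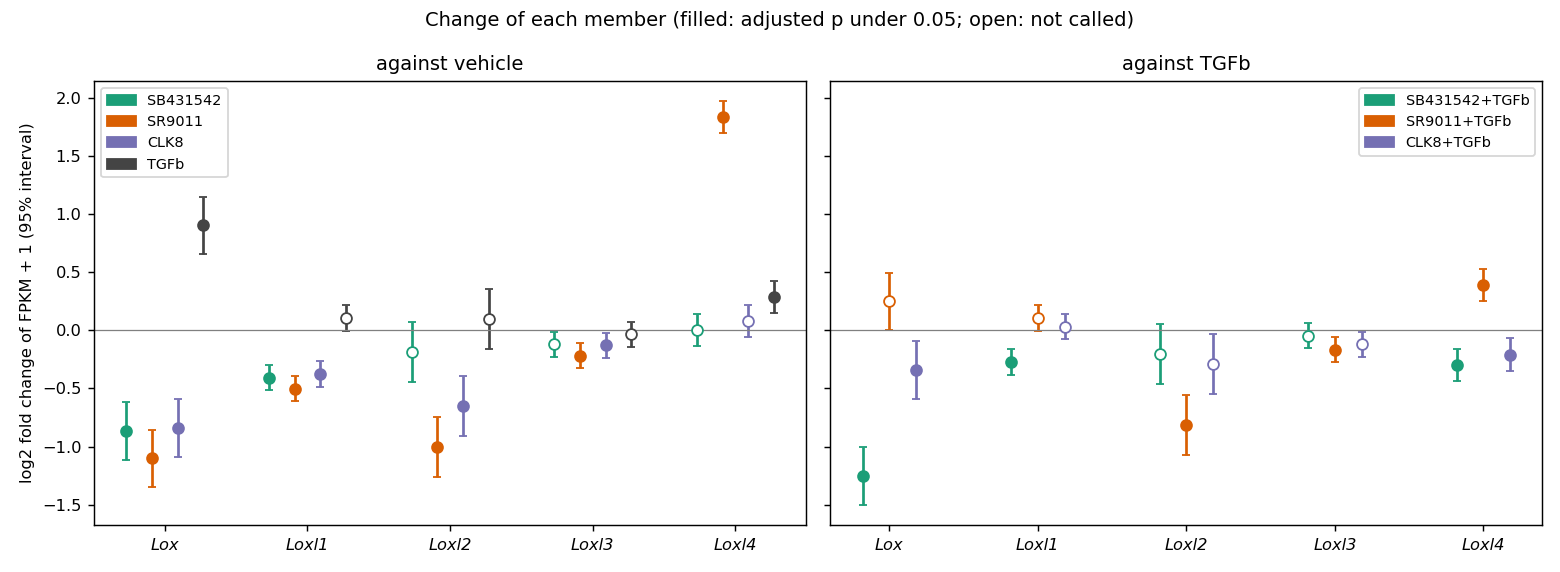
Log2 fold change of FPKM + 1 of each member (vertical axis) with its 95% interval, against vehicle (left) and against TGFb (right), coloured by treatment. Filled points have an adjusted p under 0.05. Without TGFb the 3 compounds lie below 0 for Lox and Loxl1, and Loxl4 with SR9011 stands at 1.83, opposite to the other members.

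Across the family, the sum of the 5 members was 367 ± 25.7 FPKM with SB431542+TGFb, 742 ± 52.2 with SR9011+TGFb, 561 ± 35.4 with CLK8+TGFb and 692 ± 15.9 with TGFb. Without TGFb it was 291 ± 22.1 FPKM with SB431542, 230 ± 27.6 with SR9011, 270 ± 49.9 with CLK8 and 440 ± 10.6 with vehicle (SD, n = 3 each). FPKM is per length, so members can be compared on it. Lox made up 75.1 ± 0.469% of the sum with TGFb and 63.1 ± 1.85% with vehicle, while Loxl2 made up 16.8 ± 0.732% and 24.7 ± 2.36% in those groups. The makeup differed most with SR9011+TGFb, where Lox held 83.2 ± 1.24% and Loxl2 8.84 ± 0.414%. There were 9.43 ± 0.548 Lox transcripts per Loxl2 transcript on the FPKM scale with SR9011+TGFb, against 4.49 ± 0.213 with TGFb, and the libraries did not overlap. With SR9011 alone this ratio was 2.43 ± 0.405, and with vehicle 2.58 ± 0.34. Loxl4 held 2.82 ± 0.709% of the sum with SR9011 and 0.241 ± 0.028% with vehicle.

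**Figure D3:**
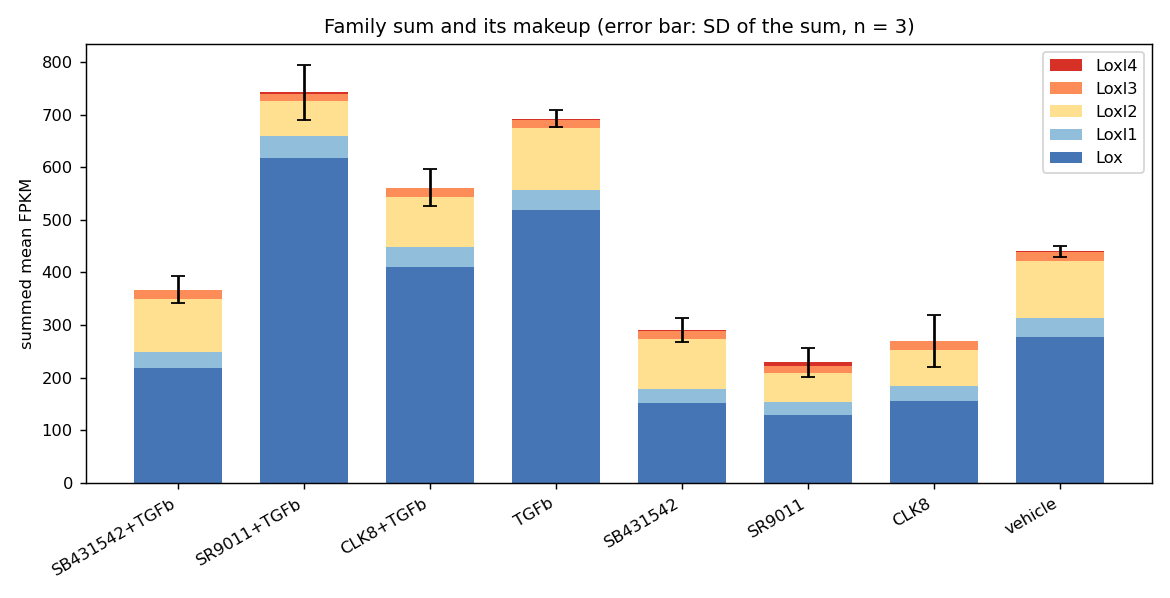
Summed mean FPKM of the 5 members by group, stacked by member, with the SD of the sum over 3 libraries. Lox is the largest part of every bar, and the sum is highest with SR9011+TGFb (742 FPKM) and lowest with SR9011 (230 FPKM).

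The response to TGFb was then set side by side in cells with each compound, and the difference between the responses was tested as the interaction of the compound with TGFb. Groups given a compound and TGFb may also have had the compound for longer, which the interaction does not remove. SB431542+TGFb against SB431542 called 2 members, both higher, where 4.36% of all genes were called, 2.01% higher and 2.35% lower. Samples of these groups with the same replicate number deviated together (residual correlations 0.415, 0.208 and 0.117). A fit of these groups with the replicate number as a block also called 2 members, with 1033 genes called in all, against 493. SR9011+TGFb against SR9011 called 3, with 2 higher and 1 lower (45.3% of all genes, 14.3% higher and 31% lower). CLK8+TGFb against CLK8 called 3, all higher (51.9% of all genes, 17.3% higher and 34.6% lower). The interaction of SB431542 with TGFb called 1 member, with a lower response (34.3% of all genes, 21.5% higher and 12.8% lower). The interaction of SR9011 with TGFb called 3, with 2 higher and 1 lower (31.9% of all genes, 16.6% higher and 15.3% lower). The interaction of CLK8 with TGFb called 1, higher (7.97% of all genes, 4.58% higher and 3.39% lower). These comparisons also share libraries with those above.

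Lox rose with TGFb with and without each compound, by 4.75-fold in SR9011 cells (log2 2.25, limma adjusted p = 9.40e-13), 2.62-fold in CLK8 cells (log2 1.40, limma adjusted p = 1.90e-09), 1.43-fold in SB431542 cells (log2 0.52, limma adjusted p = 0.0137) and 1.87-fold without compound. The response in SR9011 cells exceeded that without compound by 1.35 on the log2 scale (95% interval 0.9995 to 1.70, limma adjusted p = 4.00e-06), the 30th highest interaction among tested genes. SR9011+TGFb averaged 618 ± 52.4 FPKM, against 519 ± 10.9 FPKM with TGFb, a difference that was not called, and SR9011 averaged 130 ± 24.9 FPKM, against 278 ± 4.03 FPKM with vehicle, which was (SD, n = 3 each). For CLK8 the interaction of Lox was 0.50 (95% interval 0.15 to 0.85) and was not called (limma adjusted p = 0.0731). It was called without CLK8 replicate 2 (0.68, adjusted p = 0.00319), while leaving out other libraries gave an adjusted p of up to 0.176. For SB431542 it was -0.39 (95% interval -0.74 to -0.04, limma adjusted p = 0.0816), and the adjusted p was 0.00198 in the compared groups alone. With libraries left out in turn that adjusted p was 0.0607 to 0.168. The remaining response of Lox in SB431542 cells was the 38th largest rise in that comparison, and its call was lost without SB431542+TGFb replicate 2 or 3 or SB431542 replicate 1 (adjusted p of 0.0543 to 0.0567).

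Loxl1 rose with TGFb by 1.67-fold in SR9011 cells (log2 0.72, limma adjusted p = 1.28e-10), 1.44-fold in CLK8 cells (log2 0.51, limma adjusted p = 2.22e-08) and 1.19-fold in SB431542 cells (log2 0.24, limma adjusted p = 0.00923). Its interaction was called for SR9011 (0.61, 95% interval 0.45 to 0.76, limma adjusted p = 2.17e-06) and for CLK8 (0.41, 95% interval 0.25 to 0.56, limma adjusted p = 0.000996). It was not called for SB431542 (0.13, 95% interval -0.02 to 0.29). Without SB431542+TGFb replicate 2, the call of Loxl1 in SB431542 cells was lost (adjusted p = 0.0500156).

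Loxl4 went the other way in SR9011 cells, where its mean with TGFb was 0.36 of that without (log2 -1.16, limma adjusted p = 1.33e-12). Its interaction with SR9011 was -1.44 (95% interval -1.64 to -1.25, limma adjusted p = 2.80e-10), the 10th lowest among tested genes. In CLK8 cells Loxl4 had 1.20, 1.12 and 1.20 FPKM with CLK8+TGFb, against 1.19, 1.11 and 1.22 FPKM with CLK8, and in SB431542 cells the groups also overlapped. The interaction was called for SB431542 (-0.30, limma adjusted p = 0.0181), a call lost without vehicle replicate 2 (adjusted p = 0.0566), and not for CLK8 (-0.29, 95% interval -0.48 to -0.09, limma adjusted p = 0.0649). The CLK8 interaction was called with a pseudocount of 0.1 or 0.5, after quantile normalization, without a trend and in the compared groups alone (adjusted p of 0.0298 to 0.0471).

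Loxl2 rose with TGFb in CLK8 cells (log2 0.46, limma adjusted p = 0.00359), where CLK8 replicate 2 overlapped the CLK8+TGFb libraries, and in SR9011 cells it was not called (log2 0.29, limma adjusted p = 0.0631). The SR9011 comparison was called after TPM or quantile scaling and in the compared groups alone (adjusted p of 0.0214 to 0.0362). None of its 3 interactions was called, and for CLK8 the value was 0.36 (95% interval 0.0006 to 0.73). Without CLK8 replicate 2 that interaction was 0.54 (adjusted p = 0.0244). Loxl3 was not called in any of the 3 TGFb responses or interactions.

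**Figure D4:**
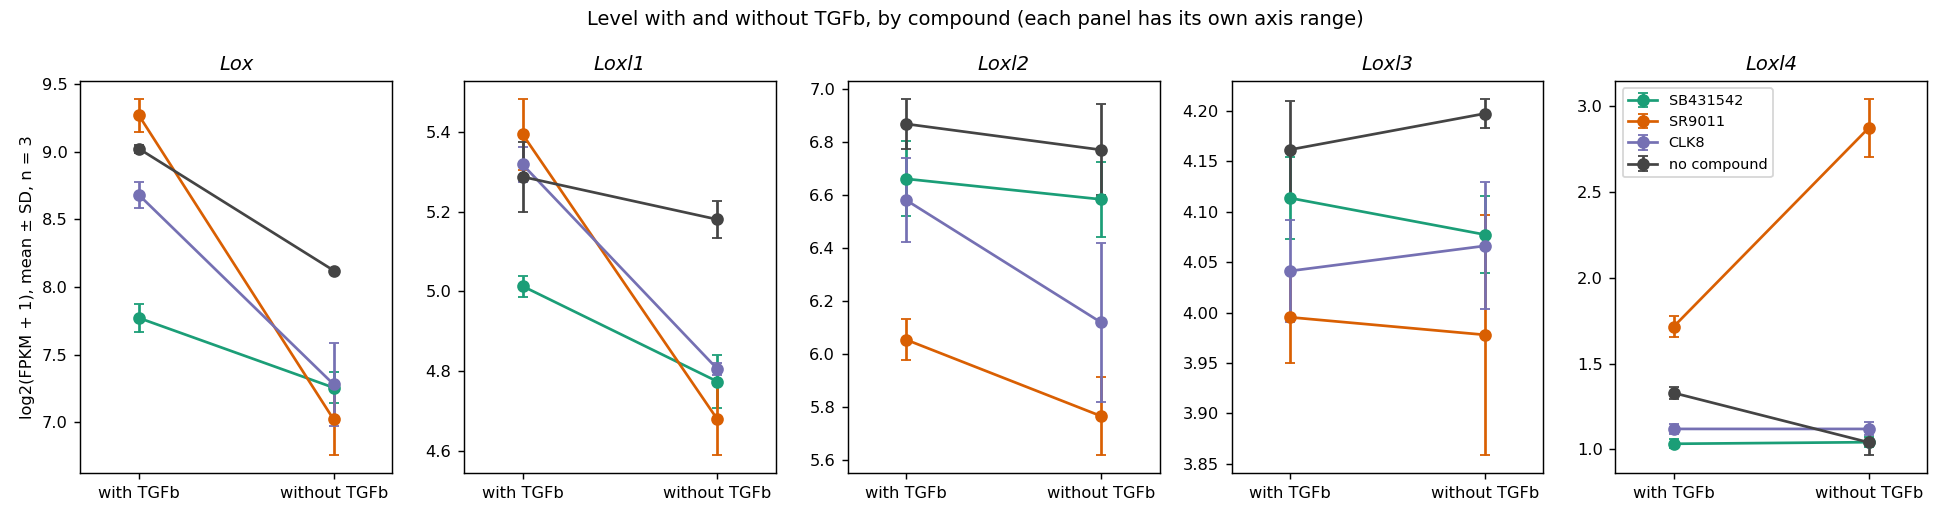
Mean log2(FPKM + 1) ± SD (n = 3) of each member with TGFb (left of each panel) and without (right), joined per compound, each panel on its own axis range. The SR9011 line crosses the line without compound for Lox and Loxl1, and the CLK8 line does so for Loxl1 and Loxl4, where the SB431542 line meets it without TGFb. The SR9011 line for Loxl4 is lower with TGFb (mean 2.29 FPKM) than without (6.35 FPKM).

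Compared with vehicle, SR9011+TGFb called all 5 members, 3 higher and 2 lower (65.2% of all genes, 34.8% higher and 30.5% lower). Lox (log2 1.15), Loxl4 (0.67) and Loxl1 (0.21) were higher and Loxl2 (-0.72) and Loxl3 (-0.20) lower. CLK8+TGFb called 3, with Lox (0.56) and Loxl1 (0.14) higher and Loxl3 (-0.16) lower (55.3% of all genes, 27.9% higher and 27.4% lower). The Loxl1 call was lost after quantile normalization (adjusted p = 0.0589) and without vehicle replicate 2 or 3 or CLK8+TGFb replicate 2 or 3 (0.0518 to 0.117). The Loxl3 call was lost after TPM rescaling (adjusted p = 0.336) and without CLK8+TGFb replicate 3 (0.0703). SB431542+TGFb called 0 members with limma (3.5% of all genes, 2.88% higher and 0.62% lower), and 2, Lox and Loxl1, had an unadjusted p under 0.05.

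Genes around the lysyl oxidases were described from 5 lists. These were propeptide cleavage and assembly, copper supply, collagen and elastin substrates, lysyl hydroxylation and other crosslinking enzymes. Of 12 genes for propeptide cleavage and assembly, 11 were tested. TGFb against vehicle raised 7 and lowered 4, where 20.5% of all tested genes were called higher and 34.4% lower. The median log2 change was 0.36, against -0.049 for all tested genes. The 4 lowered genes were Adamts2 (log2 -0.78), the procollagen protease enhancer Pcolce (-0.53), Adamts14 (-0.28) and Efemp2 (-0.12, limma adjusted p = 0.04998). Bmp1, the protease that removes the Lox propeptide, rose to 58.6 ± 1.001 FPKM with TGFb, against 45.4 ± 0.886 FPKM with vehicle (log2 0.36, limma adjusted p = 2.86e-06). Postn, a matricellular protein that assists Bmp1, rose by 4.24 on the log2 scale, Thbs1 by 0.95 and the Bmp1 relative Tll1 by 0.90. Tll1 averaged 1.33 ± 0.254 FPKM with TGFb and 0.25 ± 0.085 FPKM with vehicle. TGFb was its highest group, so it may have passed the filter at 1 FPKM through that group alone. Its rise is therefore no support for the list, though Tll1 is included in the 7 raised genes and in the median. SR9011 against vehicle lowered 9 of the 11 and raised 0, where 28.3% of all genes were lower and 40.7% higher (median log2 -0.88), with Thbs1 at -2.42, the procollagen protease enhancer Pcolce at -1.43 and fibronectin (Fn1) at -1.34. The 9 lowered genes include Tll1 (log2 -0.27), which was at only 0.25 ± 0.085 FPKM with vehicle. Bmp1 was not called with SR9011 (log2 -0.067, limma adjusted p = 0.25).

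Among collagen and elastin substrates, TGFb raised 7 and lowered 0 of 8 tested genes, where 20.5% of all genes were higher and 34.4% lower (median log2 0.57), with the fibrillar collagen genes Col5a2 at 1.44, Col5a1 at 1.43, Col1a1 at 0.62 and Col3a1 at 0.59 and the basement membrane gene Col4a1 at 0.54. Eln, the elastin gene, was not called (4.32 ± 0.652 FPKM with TGFb and 5.14 ± 0.532 FPKM with vehicle, limma adjusted p = 0.276). SR9011 lowered all 8, where 28.3% of all genes were lower (median log2 -1.23, against 0.063 for all tested genes). Eln was at -2.01, Col1a1 at -1.96, Col3a1 at -1.76, Col1a2 at -1.59 and Col5a2 at -0.87. With SR9011, Eln averaged 0.52 ± 0.06 FPKM, against 5.14 ± 0.532 FPKM with vehicle. At so low a level its log2 change of FPKM + 1 understates the fall. SB431542 lowered 6 of the 8 (5.05% of all genes were lower) and CLK8 lowered 7 (13.6% of all genes), and neither raised any. In SR9011 cells TGFb raised all 8, where 14.3% of all genes were higher and 31% lower. SR9011+TGFb against TGFb lowered 6 and raised 1, where 24% of all genes were lower and 36.8% higher.

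The list of lysyl hydroxylation held 8 tested genes, whose products hydroxylate collagen lysines before crosslinking or help that step. TGFb raised 4 and lowered 1, where 20.5% of all genes were higher and 34.4% lower (median log2 0.22), with Plod2, the hydroxylase of collagen telopeptides, at 0.74, its partner Fkbp10 at 0.53 and Plod1 at 0.42. SR9011 lowered 6 and raised 1, where 28.3% of all genes were lower and 40.7% higher (median log2 -0.43), with Plod2 at -1.36, Fkbp10 at -0.66 and P3h4 at -0.56. Of 11 copper supply genes, TGFb raised 1 and lowered 7, against the same shares of all genes (20.5% higher, 34.4% lower, median log2 of the list -0.39), with the metallothionein Mt1 at -1.05 and the copper chaperones Ccs at -0.45 and Atox1 at -0.42. The importer Slc31a1 and the Golgi copper pump Atp7a, which loads secreted enzymes, were not called with TGFb (log2 -0.027 and -0.15). SR9011 raised 7 and lowered 3 of the copper supply genes, where 40.7% of all genes were higher and 28.3% lower (median log2 0.34). Mt2 at 1.57 and Slc31a1 at 0.35 were higher. Atp7a at -0.57, Atox1 at -0.54 and the liver copper pump Atp7b at -1.04 were lower. The change of Atp7b is likewise understated, at 0.347 ± 0.055 FPKM with SR9011 against 1.77 ± 0.115 FPKM with vehicle. Of 6 genes for other crosslinking enzymes, 2 were tested. Tgm2, a transglutaminase, was lower with TGFb (log2 -1.66) and with SR9011 (-1.75), and the peroxidasin gene Pxdn, which crosslinks collagen IV, was at 0.12 with TGFb and -0.64 with SR9011. The Pxdn call with TGFb was lost without TGFb replicate 2 or vehicle replicate 1 or 2 (adjusted p of 0.0672 to 0.0868).

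Members were compared over the 24 libraries by Pearson correlation of log2(FPKM + 1), as a description, since libraries of a group share their treatment. Lox and Loxl1 followed each other most closely (r = 0.945), while the coefficient was negative for Loxl2 with Loxl4 (r = -0.728). The SR9011 and SR9011+TGFb libraries had the highest Loxl4 values (2.19 to 7.21 FPKM) and Loxl2 values of 47.6 to 69.4 FPKM. Outside them the fitted changes of Loxl2 and Loxl4 had the same sign in TGFb against vehicle (log2 0.098 and 0.29), SB431542+TGFb against TGFb (-0.21 and -0.30) and CLK8+TGFb against TGFb (-0.29 and -0.21), though Loxl2 was called in none of these. The sign was also shared in SB431542+TGFb against vehicle (-0.11 and -0.0083) and CLK8+TGFb against CLK8 (0.46 and 0.00011). The signs differed in CLK8 against vehicle (-0.65 and 0.078) and CLK8+TGFb against vehicle (-0.19 and 0.078). They differed as well in SB431542 against vehicle (-0.19 and 0.0011) and SB431542+TGFb against SB431542 (0.077 and -0.0093). Which libraries the negative coefficient comes from was not tested. Lox with Loxl2 gave 0.361, with Loxl3 0.093 and with Loxl4 -0.213. Outside the family, the patterns most like that of Lox were those of Calu, a calcium-binding protein of the secretory pathway (r = 0.965), Pdgfrl (0.951) and the collagen IV gene Col4a1 (0.951). For Loxl1 they included the transcriptional repressor Hes1 (0.933) and the sulfate donor synthase Papss2 (0.930). For Loxl2 they were P4ha1, a subunit of collagen prolyl hydroxylase (0.966), the histone demethylase Kdm5b (0.957) and the amino acid transporter Slc43a2 (0.954). Loxl3 had less close partners in Psmc3 (0.873), Slc38a10 (0.859) and Cfl1 (0.820). Loxl4 was most like Rhot1, a mitochondrial GTPase (0.982), the poly(A)-binding protein Pabpc1 (0.970) and Cdsn (0.964). With SR9011 against vehicle these were also higher (log2 0.83, 0.35 and 3.23). With TGFb against vehicle, where Loxl4 was at 0.29, Rhot1 was at 0.15, and Pabpc1 (0.025) and Cdsn (-0.17) were not called. The part of the SR9011 libraries in these coefficients was not tested.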

How the data were processed

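RNA from 24 libraries of EMS404 cells (8 groups of 3) was measured by RNA-seq. The authors deposited FPKM with 2 decimals for 16620 lines, and the submitters' processing notes name HISAT2 2.0.4, Bowtie2 2.2.5, RSEM, DESeq2 and the build mm10, with no role given. RNA came from either of 2 kits depending on sample abundance, per the labels' protocols, with no record of which library had which. The 16 lines of 8 repeated identifiers were left out, and 43 of 16612 identifiers had no symbol in GENCODE M21 (GRCm38), which also gave positions.

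log2(FPKM + 1) was fitted by limma 3.58.1 (R 4.3.3) using a mean-variance trend and robust moderation, with all 8 groups in 1 model and no block (16 residual degrees of freedom, median standard error 0.064 between groups). P-values are 2-sided. Python 3.11.15 made the tables (pandas 2.3.3, numpy 2.4.6) and the figures (matplotlib 3.10.9). The fit was also run on simulated independent values with far fewer changed genes than here, so that run does not bear on the calls.

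Named genes were all members, up to 3 called genes per list with the smallest adjusted p for TGFb and for SR9011 against vehicle, 7 genes in every case (Bmp1, Plod2, Atp7a, Slc31a1, Col1a1, Col3a1 and Eln), and the 3 genes most like each member, leaving out other members and predicted genes. A gene that this rule named for Loxl1 is not reported here. Htra2 was added after its overlap with Loxl3 was seen. The 4 genes of the propeptide list that TGFb lowered were named after the results were seen. Members and lists were chosen with earlier results of these data known. Also run were other pseudocounts (0.1 and 0.5), a filter at 5 FPKM or none, rescaling to TPM, quantile normalization, a fit with no trend, fits restricted to the groups compared, a block for replicate number, and fits without each library in turn. Same-numbered libraries deviated together, with all 3 residual correlations over 0.1, in SB431542+TGFb and SB431542 alone among the 13 pairs of groups compared. For these a blocked fit of both groups was added after the data were seen.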

Additional observations from a re-analysis of the deposited data

Results flagged for a closer look

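The tests of the difference between TGFb responses picked out 5 results. With SR9011, the TGFb response differed from that without compound for Lox (1.35 on the log2 scale, limma adjusted p = 4.00e-06), Loxl1 (0.61, limma adjusted p = 2.17e-06) and Loxl4 (-1.44, limma adjusted p = 2.80e-10). These 3 calls held under every alternative run, with values of 1.25 to 1.499 for Lox, 0.56 to 0.66 for Loxl1 and -1.91 to -1.36 for Loxl4. At the filter of 5 FPKM, Loxl4 passed only through the 3 SR9011 libraries, so that alternative gives its call no separate support. The spread of the SR9011 libraries was the widest of the 8 groups, and in a fit of the compared groups alone these calls also held.

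With CLK8 the TGFb response of Loxl1 differed (0.41, limma adjusted p = 0.000996), and with SB431542 that of Loxl4 (-0.30, limma adjusted p = 0.0181). The Loxl1 value ranged from 0.38 to 0.46 over the alternatives. The Loxl4 difference rested on levels near 1 FPKM (1.05 ± 0.038 FPKM with SB431542+TGFb, 1.06 ± 0.044 with SB431542, 1.51 ± 0.065 with TGFb and 1.06 ± 0.105 with vehicle), and the call was lost without vehicle replicate 2.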

How the results depend on the processing

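Of 1295 alternative values of the 80 member changes, 1242 kept their side of the threshold, 26 lost a call, 27 gained 1 and 0 of the called values changed sign. Values that were not called changed sign 31 times. The number of called members moved by over 1.5 times in 22 of 259 alternatives. Moved counts were CLK8+TGFb against TGFb, 2 members, with 1 after TPM rescaling, and SB431542+TGFb against vehicle, 0 members, with 2 in the compared groups alone. The interaction with SB431542, 1 member, gave 2 in the compared groups alone. The interaction with CLK8, 1 member, gave 2 with either other pseudocount, quantile normalization, no trend or the compared groups alone. With the replicate number as a block, SB431542+TGFb against vehicle called 1 member and the interactions with SB431542 and CLK8 called 2 each. The block left the other 13 counts within 1.5 times. It called Lox for SR9011+TGFb against TGFb (adjusted p = 0.0287), SB431542+TGFb against vehicle (0.0392) and the interactions with SB431542 (0.0296) and CLK8 (0.0217). It also called Loxl2 for CLK8+TGFb against TGFb (0.026) and SR9011+TGFb against SR9011 (0.0236). Apart from SB431542+TGFb and SB431542, groups shared only a number, and in 1 of these pairs of groups, SR9011+TGFb and TGFb, every sample correlated best with its own number. Leaving out each library gave 0 to 2 members for CLK8+TGFb against TGFb and for SB431542+TGFb against SB431542. It gave 1 to 3 for CLK8+TGFb against vehicle, 0 to 1 for the interaction with SB431542 and 1 to 3 for that with CLK8. The number of all genes called also fell without a library, to between 199 and 244 of 493 for SB431542+TGFb against SB431542 and to between 180 and 240 of 395 for SB431542+TGFb against vehicle, in the 3 and 5 cases that moved it by over 1.5 times. Atp7a was called with TGFb in the compared groups alone (adjusted p = 0.0321), and Bmp1 with SR9011 after TPM or quantile scaling (0.0354 and 0.035). The cause of these shifts was not tested. TPM and quantile scaling flipped no called member. Loxl4 averaged 1.05 to 1.17 FPKM in 5 groups, where 2-decimal values and the pseudocount limit precision.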
